A study of Schizosaccharomyces japonicus with 6 samples.

Results

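The heat shock protein and chaperone genes of the fission yeast *Schizosaccharomyces japonicus* were followed in 3 strains as a check for a stress response. The symbols looked for among the 5272 genes of the expression table numbered 9, namely *hsp90*, *hsp104*, *hsp16*, *ssa1*, *ssa2*, *sks2*, *bip1*, *hsp60* and *mas5*. A gene was taken where its symbol was one of these, which gave 5 genes, *hsp90*, *hsp104*, *sks2*, *bip1* and *mas5*. The other 4 symbols name no row, but 4 rows carry a description that names the same proteins: Hsp16 (SJAG_03815), Ssa1 (SJAG_04055), Ssa2 (SJAG_01186) and Hsp60 (*mcp60*, SJAG_00564). These 4 were found through their descriptions and are counted apart from the 5.

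Chaperones bind proteins that are unfolded or still folding. Hsp70 proteins take hold of short exposed stretches and release them under the control of J-domain proteins and nucleotide exchange factors, Hsp90 acts later on a narrower set of clients such as kinases, and the ring-shaped Hsp60 encloses proteins inside mitochondria. Small heat shock proteins such as Hsp16 keep unfolded proteins from clumping, and Hsp104 pulls proteins back out of aggregates. In yeasts some of these genes are expressed strongly in unstressed cells, whereas others are kept low and are induced by heat through heat shock factor, or by many kinds of stress through the Sty1 kinase and its transcription factor Atf1.

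RNA was sequenced from vegetative cells of 3 strains, WT (wild type), a *pab2* deletion (*pab2*Δ) and the mutant *clr4-1*, with 2 biological replicates, and so 2 libraries, per strain. WT was the strain NIG5572. In *pab2*Δ the gene for Pab2, a nuclear poly(A)-binding protein, was replaced by a drug resistance marker. In *clr4-1* the gene for Clr4, which methylates histone H3 at lysine 9, carries mutations from random PCR mutagenesis, and the allele is temperature-sensitive. The mutagenized DNA included a drug resistance marker. All cells were grown in rich medium at 30°C and harvested in mid-log phase, and no heat shock was given. For ChIP the paper used a lower growth temperature, which it calls permissive for its mutant strains. Expression is given in FPKM (fragments per kilobase of transcript, relative to all mapped fragments of a library), so levels of different genes are compared per length. The number of reads behind a value is unknown.

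*pab2* was at 145 and 142 FPKM in WT, had 0 listed for each *pab2*Δ library and stood at 161 and 174 FPKM in *clr4-1*. *clr4* was at 9.34 and 9.48 FPKM in WT, 9.70 and 7.99 FPKM in *pab2*Δ and 19.6 and 23.3 FPKM in *clr4-1*, where the gene is mutated and not deleted, so its level does not check that label. The 2 libraries of a strain differed by a median of 0.05 to 0.06 on the log2 scale over the 4899 genes tested. The tests used limma on log2(FPKM + 1) over all 6 libraries with Benjamini-Hochberg adjustment over all genes tested, and a gene was called at an adjusted p under 0.05. FPKM summed over all genes was 0.865-fold of WT in *pab2*Δ. All genes together had a median log2 fold change of 0.19 there, and of −0.06 in *clr4-1*. Each count of limma calls was therefore also taken after TMM scaling, which sets the bulk of the genes equal between libraries and brought both medians to within 0.01 of 0.

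In *pab2*Δ, the chaperone genes with the lowest FPKM in WT were higher. Those with high FPKM stayed near their WT level or were lower as deposited, and all 6 of them were called lower after TMM scaling. Hsp16 was 5.88-fold, Ssa1 2.84-fold and *hsp104* 1.76-fold higher than in WT, while Ssa2, *bip1* and *mcp60* were between 0.794-fold and 0.864-fold. In *clr4-1* the same 3 genes with the lowest WT levels were at 0.705-fold to 0.809-fold of WT. Of the genes with higher WT levels, *bip1* was at 0.810-fold and *mcp60* at 0.889-fold there. The rest, *hsp90*, *sks2*, Ssa2 and *mas5*, were between 1.01-fold and 1.14-fold. None of the 5 genes found by symbol passed 2-fold in all 4 ratios of mutant to WT libraries in either mutant, and among the 4 found by description Hsp16 and Ssa1 did so in *pab2*Δ. Of all 4897 genes with WT above 0, 7.6% were above 2-fold in all 4 ratios and 2.02% below 0.5-fold in *pab2*Δ, against 0.796% and 1.18% in *clr4-1*.

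**Figure D1:**
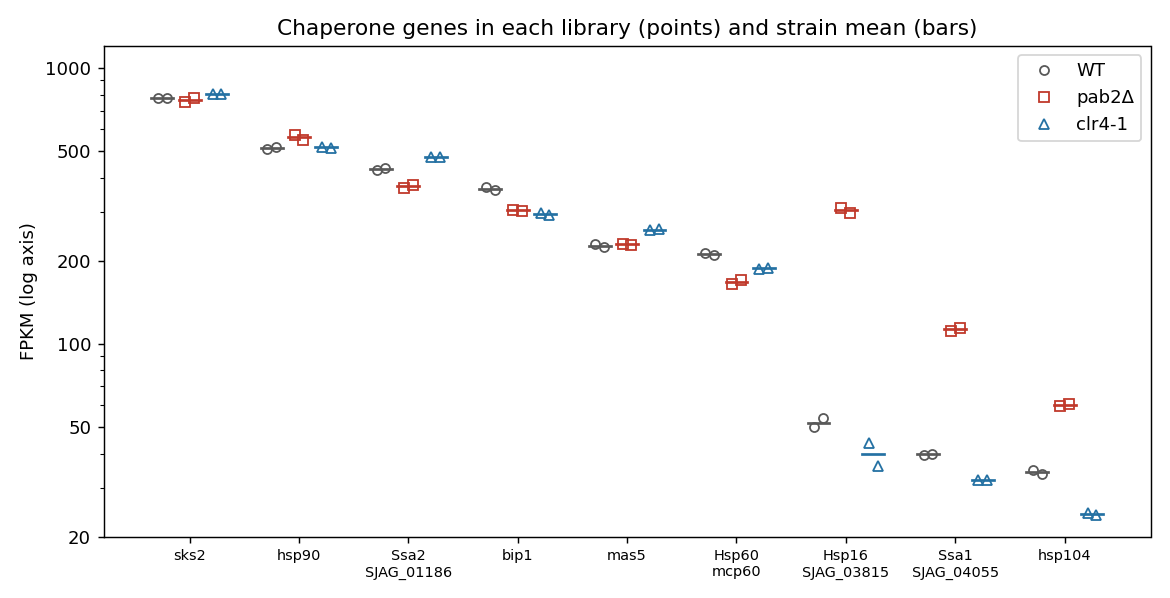
FPKM (log axis) of the 9 chaperone genes in each library of WT (circles), *pab2*Δ (squares) and *clr4-1* (triangles), with short bars at the strain means and genes ordered by their WT level. Hsp16, Ssa1 and *hsp104*, the 3 lowest in WT, are the genes at which the *pab2*Δ squares stand well above the other strains.

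In WT, *sks2* was the highest of the 9 with a mean of 777 FPKM ± 1.80 (SD, n = 2) and ranked 180 among the 5272 genes. It was followed by *hsp90*, Ssa2, *bip1*, *mas5* and *mcp60* in that order, and *mcp60*, the lowest of these, still had a mean of 211 FPKM. Hsp16, Ssa1 and *hsp104* formed a lower tier with means of 51.8, 39.7 and 34.2 FPKM, and *hsp104* ranked 2082. No 2 neighbours in this order overlapped in their WT libraries. In *pab2*Δ the order of the other 8 was kept, and Hsp16 at 309.8 and 299 FPKM came to the level of *bip1* at 305 and 303 FPKM, and these 2 genes overlapped.

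Hsp16 is the small heat shock protein of the set. SJAG_03815 was at 49.8 and 53.7 FPKM in WT, 309.8 and 299 FPKM in *pab2*Δ and 43.7 and 35.9 FPKM in *clr4-1*. Both *pab2*Δ libraries stood far above the other 4, and neither mutant overlapped WT. The log2 fold change was 2.53 (SE 0.093, adjusted p = 7.02e-06 from limma) in *pab2*Δ, higher than in 98.6% of all genes tested. In *clr4-1* it was −0.38 (adjusted p = 0.0238 from limma), a call that was lost when either WT library or either *pab2*Δ library was left out, with adjusted p between 0.0515 and 0.118. The 2 *clr4-1* libraries differed from each other by 0.28 on the log2 scale at this gene, the widest gap between replicates among the 9.

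The other rows of this kind varied. SJAG_04567, a gene without a symbol that belongs to the Hsp16 family, was at 20.2 and 19.1 FPKM in WT, 158 and 159 FPKM in *pab2*Δ and 26.0 and 20.8 FPKM in *clr4-1*. Its level in *pab2*Δ was 8.07-fold that of WT (2.95 on the log2 scale, adjusted p = 5.27e-06 from limma), and the 0.23 measured in *clr4-1* did not pass (adjusted p = 0.108 from limma) unless *clr4-1* replicate 2 was left out (adjusted p = 0.011). Its family is given only in a list that the study drew up from genes changed in these samples, so its rise is not independent evidence. SJAG_02919, described as of the Hsp20 family, was at 21.7 and 21.5 FPKM in WT, 23.9 and 22.1 FPKM in *pab2*Δ and 27.2 and 23.7 FPKM in *clr4-1*, and passed in neither (adjusted p = 0.334 and 0.0541 from limma), although it passed in *clr4-1* after TMM scaling (adjusted p = 0.0261) and without *clr4-1* replicate 2 (adjusted p = 0.0271). Reads from Hsp16-type genes of similar sequence could be split between rows, and their sum was 70.0 and 72.8 FPKM in WT for SJAG_03815 and SJAG_04567, against 468 and 458 FPKM in *pab2*Δ.

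Hsp104 is the disaggregase, which works on aggregates together with Hsp70. *hsp104* (SJAG_04187) was at 34.8 and 33.6 FPKM in WT, 59.5 and 60.7 FPKM in *pab2*Δ and 24.3 and 23.9 FPKM in *clr4-1*. The 3 strains did not overlap, with *pab2*Δ highest and *clr4-1* lowest. The log2 fold change against WT was 0.80 (SE 0.035, adjusted p = 1.31e-05 from limma) in *pab2*Δ and −0.49 (SE 0.035, adjusted p = 4.19e-04 from limma) in *clr4-1*. These placed *hsp104* above 88.7% of all genes in *pab2*Δ and above only 4.92% in *clr4-1*. After TMM scaling the changes were 0.59 and −0.42. *pab2*Δ exceeded *clr4-1* by 1.28 on the log2 scale (adjusted p = 2.51e-06 from limma), or 2.49-fold.

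The 3 genes whose profile over the 6 libraries lay nearest to that of *hsp104* were *tps1*, SJAG_03580 and *vps52*. The measure was the Euclidean distance between profiles of log2(FPKM + 1), each centred on its own mean, and it was 0.12 for *tps1*, 0.14 for SJAG_03580 and 0.14 for *vps52* against a median of 1.09 for all genes. *tps1*, which encodes trehalose-6-phosphate synthase, was at 42.7 and 42.0 FPKM in WT, 66.8 and 71.5 FPKM in *pab2*Δ and 29.3 and 29.7 FPKM in *clr4-1*. SJAG_03580 is described as a predicted aldolase of aromatic amino acid synthesis and *vps52* as a subunit of the GARP tethering complex. In all, 41 genes lay within 0.3 of *hsp104*.

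Among the chaperone genes found by symbol or description, the Hsp70 genes were 3 of the cytosol and *bip1* of the endoplasmic reticulum. The Hsp70 system of mitochondria was counted with the folding factors of organelles. Ssa1 and Ssa2 are the general cytosolic Hsp70 proteins, and Sks2 is bound to ribosomes and meets new chains as they emerge. Ssa1 (SJAG_04055) was at 39.5 and 39.95 FPKM in WT, 111 and 114 FPKM in *pab2*Δ and 32.1 and 32.2 FPKM in *clr4-1*. *pab2*Δ lay above WT and *clr4-1* below it, with no overlap, and the log2 fold changes were 1.48 (SE 0.032, adjusted p = 1.12e-06 from limma) and −0.30 (SE 0.032, adjusted p = 0.0015 from limma). After TMM scaling they were 1.27 and −0.23.

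Ssa2 (SJAG_01186) went the other way in both mutants. It was at 427 and 433 FPKM in WT, 365 and 377 FPKM in *pab2*Δ and 476 and 476 FPKM in *clr4-1*. The strains did not overlap, and the gene was lower in *pab2*Δ (by −0.21 on the log2 scale, adjusted p = 5.43e-04 from limma) and higher in *clr4-1* (0.15, adjusted p = 0.00673). Ssa1 accordingly made up 8.47% and 8.45% of the summed FPKM of Ssa1 and Ssa2 in the WT libraries, with 23.3% and 23.2% in those of *pab2*Δ and 6.31% and 6.33% in those of *clr4-1*. As deposited, the sum itself moved little. WT libraries were at 466 and 473 FPKM, *pab2*Δ libraries at 477 and 492 FPKM and *clr4-1* libraries at 509 and 508 FPKM. It was not taken after TMM scaling, which divides WT libraries by 0.967, *pab2*Δ libraries by 1.12 and *clr4-1* libraries by 0.926 and 0.921. Under that scaling the log2 fold change of Ssa2 was −0.42 in *pab2*Δ and 0.21 in *clr4-1*. The closeness of the sums therefore depends on the scaling. How reads common to these similar genes were assigned is not stated, so the split between them is uncertain.

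*sks2* (SJAG_03237) was at 778 and 776 FPKM in WT, 749 and 775 FPKM in *pab2*Δ and 806 and 802 FPKM in *clr4-1*. The libraries of the 3 strains were close, and neither difference passed as deposited, with log2 fold changes of −0.03 (95% interval −0.08 to 0.03, adjusted p = 0.305 from limma) and 0.05 (−0.01 to 0.11, adjusted p = 0.138). After TMM scaling both passed, at −0.24 (adjusted p = 2.45e-04) and 0.12 (adjusted p = 0.0112). Summed over Ssa1, Ssa2 and *sks2* as deposited, the cytosolic Hsp70 level had a mean of 1247 FPKM in WT, 1246 FPKM in *pab2*Δ and 1312 FPKM in *clr4-1*. This sum was not taken after TMM scaling, and its closeness between strains depends on the scaling.

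**Figure D2:**
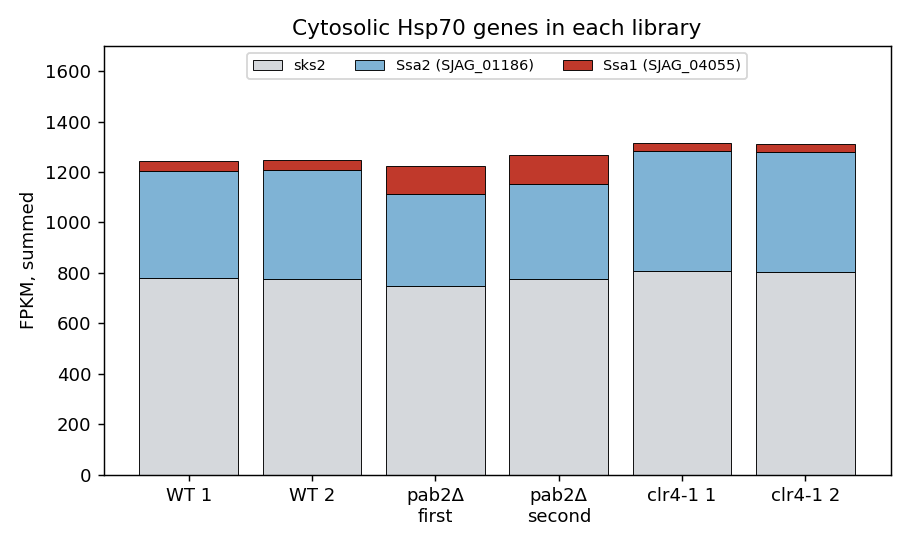
Summed FPKM of the 3 cytosolic Hsp70 genes in each library, stacked from *sks2* at the bottom through Ssa2 to Ssa1 at the top. The stacks show values as deposited, without TMM scaling, and have similar heights on that scale. The Ssa1 share is largest in both *pab2*Δ libraries, 23.3% and 23.2% of Ssa1 plus Ssa2, and about 8.5% and 6.3% in WT and *clr4-1*.

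BiP is the Hsp70 of the endoplasmic reticulum and, in budding yeast, a standard target of the unfolded protein response. *bip1* (SJAG_00790) was at 369 and 361 FPKM in WT, 305 and 303 FPKM in *pab2*Δ and 297 and 294 FPKM in *clr4-1*. All 4 mutant libraries lay below both WT libraries. The log2 fold change was −0.26 (SE 0.023, adjusted p = 1.82e-04 from limma) in *pab2*Δ and −0.30 (SE 0.023, adjusted p = 4.88e-04) in *clr4-1*, and it stayed below 0 in both after TMM scaling, at −0.47 and −0.24. Between the mutants the difference of 0.04 did not pass (95% interval −0.02 to 0.10, adjusted p = 0.143 from limma), whereas with TMM scaling *pab2*Δ was lower by 0.24 (adjusted p = 2.87e-04). *bip1* was the only 1 of the 5 genes found by symbol that was lower in both mutants under either scaling. The row *lsh1*, described as Lhs1 and so an Hsp70-related exchange factor of the same compartment, stood at 46.6 and 46.3 FPKM in WT and was higher in *pab2*Δ, with 68.9 and 65.3 FPKM (a log2 difference of 0.52, adjusted p = 7.61e-05 from limma).

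Mas5 is a cytosolic J-domain protein that hands clients to Hsp70. *mas5* (SJAG_00436) was at 229 and 224 FPKM in WT, 229.9 and 228 FPKM in *pab2*Δ and 257 and 259.7 FPKM in *clr4-1*. *pab2*Δ overlapped WT, with a log2 fold change of 0.02 (95% interval −0.04 to 0.08, adjusted p = 0.582 from limma) as deposited, which TMM scaling turned to −0.20 (adjusted p = 9.04e-04). *clr4-1* lay above both, by 0.19 against WT (adjusted p = 0.0029 from limma), and by 0.26 after TMM scaling.

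Hsp90 completes the maturation of kinases and other regulators. *hsp90* (SJAG_01664) was at 508 and 514 FPKM in WT, 571 and 549 FPKM in *pab2*Δ and 518 and 512 FPKM in *clr4-1*. *pab2*Δ stood above the other strains, whereas *clr4-1* overlapped WT. The direction in *pab2*Δ depended on the scaling, since the log2 fold change was 0.13 as deposited (SE 0.026, adjusted p = 0.00521 from limma) and, once TMM scaled, −0.08 (adjusted p = 0.0332). In *clr4-1* it was 0.01 (95% interval −0.05 to 0.08, adjusted p = 0.762 from limma). The ratio of *hsp104* to *hsp90*, which no scaling of a library can alter, was 0.0684 and 0.0654 in the WT libraries, stood at 0.104 and 0.111 in those of *pab2*Δ and was 0.0468 and 0.0467 in those of *clr4-1*.

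Hsp60 is the chaperonin of the mitochondrial matrix. *mcp60* was at 213 and 209.99 FPKM in WT, 165 and 171 FPKM in *pab2*Δ and 187 and 188 FPKM in *clr4-1*. Both mutants lay below WT with no overlap, at −0.33 (adjusted p = 1.39e-04 from limma) and −0.17 (adjusted p = 0.00624) on the log2 scale. Both stayed lower after TMM scaling, at −0.54 and −0.10.

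**Figure D3:**
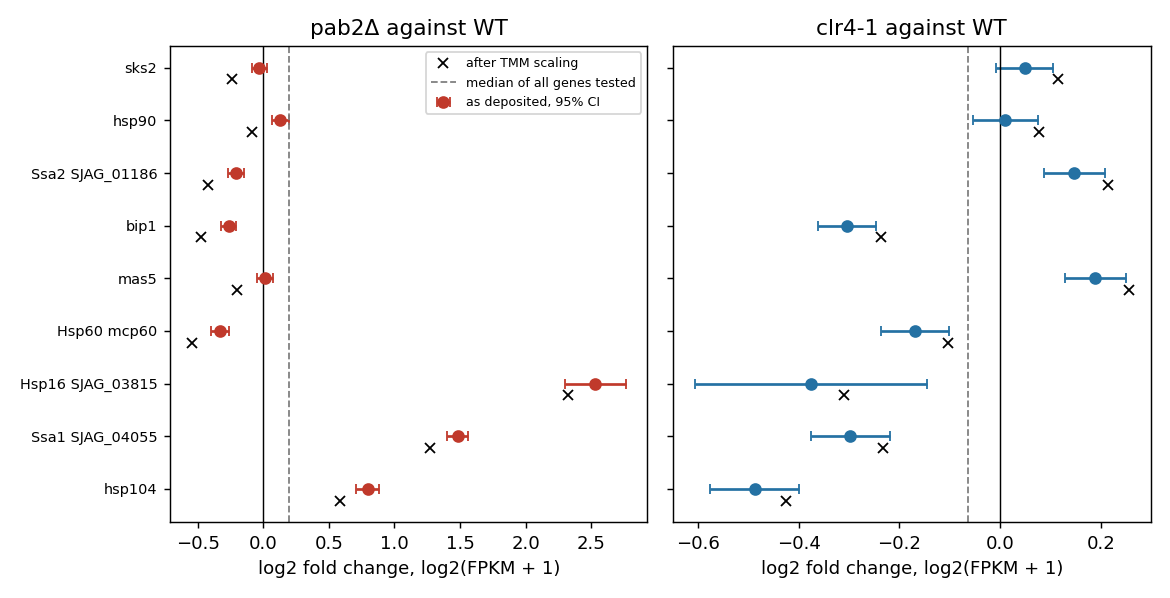
log2 fold change of the 9 chaperone genes in *pab2*Δ (left) and *clr4-1* (right) against WT, with points for the values as deposited, bars for the 95% confidence interval from limma, crosses for the values after TMM scaling and a dashed line at the median of all genes tested. The 2 panels have different horizontal scales, and in the left one *hsp90* and *mas5* change sign under TMM scaling (*hsp90* 0.13 to −0.08, *mas5* 0.02 to −0.20) while Hsp16, Ssa1 and *hsp104* stay above 0.

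Of the 5 genes found by symbol, 2 were called higher in *pab2*Δ than in WT (*hsp90* and *hsp104*), 1 lower (*bip1*) and 2 not, when 53.8% of all genes tested were called higher and 19.9% lower. After TMM scaling, with 32.8% of all genes higher and 34.5% lower, 1 of the 5 was higher (*hsp104*) and 4 lower. In *clr4-1*, 1 was higher (*mas5*) and 2 lower (*hsp104* and *bip1*), against 15.1% and 27.5% of all genes, and after TMM scaling 2 were higher and 2 lower, against 21% and 17.7%. Directly compared, *pab2*Δ was above *clr4-1* at 2 of the 5 and below at 2, against 61.1% and 17.4% of all genes, and after TMM scaling above at 1 and below at 4, against 34.4% and 34.5%. The 5 genes had a median log2 fold change of 0.02 in *pab2*Δ and 0.01 in *clr4-1* as deposited, or −0.20 and 0.08 after TMM scaling. As deposited, their summed FPKM had a WT mean of 1914, with 1915 for *pab2*Δ and 1897 for *clr4-1*. Summed over all 9 genes the means were 2647, 2871 and 2633 FPKM. Neither sum was taken after TMM scaling, and how close the strains lie depends on the scaling and on the genes summed. With so many genes called, the counts say little by themselves, and the size of the changes separates the genes. Of the 4 found by description, 2 were called higher and 2 lower in *pab2*Δ, and 1 higher and 3 lower in *clr4-1*, and these counts did not change after TMM scaling.

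The factors that act with Hsp90 and Hsp70 stayed within 2-fold of WT in both mutants. Of 7 Hsp90 co-chaperones, 4 were called higher and 1 lower in *pab2*Δ (median log2 fold change 0.23 against 0.19 for all genes), near the 53.8% and 19.9% of all genes tested, and after TMM scaling 2 were higher and 3 lower, against 32.8% and 34.5%. The p23-type *wos2* had the largest change, with WT libraries at 214 and 215 FPKM and *pab2*Δ libraries at 349 and 343 FPKM (0.69, adjusted p = 5.72e-06 from limma), followed by *cns1* at 0.48. In *clr4-1*, 5 of the 7 were lower, against 27.5% of all genes, or 4 after TMM scaling, against 17.7%, and the rest were not called, with *wos2* at 190 and 187 FPKM. Of 7 partners of cytosolic Hsp70, 4 were higher and 3 lower in *pab2*Δ, or 1 higher and 3 lower after TMM scaling, where all genes had 53.8% higher and 19.9% lower, or 32.8% and 34.5%. The lower ones included *fes1*, whose product is an exchange factor in budding yeast, at 68.9 and 70.4 FPKM where WT had 103 and 97.5 FPKM (−0.52). They also included *zuo1*, the J-domain partner of ribosome-bound Hsp70 in budding yeast, at 199 and 204 FPKM against 278 and 280.3 FPKM (−0.47). In *clr4-1* both of these were called higher, at 0.14 and 0.20, but *fes1* was not when WT replicate 2 or either *clr4-1* library was left out (adjusted p between 0.0923 and 0.113 from limma).

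The folding factors of organelles and of the cytosolic chaperonin included some that fell further in *pab2*Δ, beside shares of all genes tested of 53.8% higher and 19.9% lower as deposited and 32.8% and 34.5% after TMM scaling. In the endoplasmic reticulum, 5 of 8 were higher and 2 lower (2 and 3 after TMM scaling), and *psh3*, a chaperone of amino acid permeases in *S. pombe*, fell to 33.6 and 33.9 FPKM, where the WT libraries had 71.6 and 77.2 FPKM (−1.12, adjusted p = 1.3e-05 from limma). *ero11*, an oxidase for disulfide bonds, was higher by 0.79. In mitochondria, 3 of 6 were higher and 1 lower (2 and 3 after TMM scaling), and *mge1*, the exchange factor of mitochondrial Hsp70, fell from 216 and 207 FPKM to 82.2 and 96.5 FPKM (−1.24, adjusted p = 4.19e-05 from limma), whereas *jac1*, a J-domain protein of iron-sulfur cluster assembly, was higher by 0.50. Of 13 CCT and prefoldin subunits, 3 were higher and 6 lower (1 and 10 after TMM scaling), and the prefoldin subunits *pfd6* and *pfd2* had the largest changes, −0.90 and −0.58. In *clr4-1*, 3 of the 8 and 3 of the 6 were lower and 1 of the 13 was higher, the others not being called, against 27.5% lower and 15.1% higher among all genes. After TMM scaling, 2 of the 8 and 2 of the 6 were lower and 1 of the 6 and 3 of the 13 higher, against 17.7% and 21%. In *clr4-1*, *psh3*, *mge1*, *pfd6* and *pfd2* did not pass, with log2 fold changes between −0.04 and 0.16.

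The listed genes of the core stress response and 2 further heat-induced genes were higher in *pab2*Δ as deposited, several of them by more than 2-fold. *hsp9*, a small heat-induced protein of the Hsp12 kind, was at 592 and 633 FPKM in WT, 4682 and 4810.3 FPKM in *pab2*Δ and 568 and 534 FPKM in *clr4-1*, 7.75-fold above WT in *pab2*Δ (2.95, adjusted p = 4.13e-07 from limma). *hsp3105*, of the Hsp31 kind, was at 4.29 and 4.61 FPKM in WT, 81.8 and 78.2 FPKM in *pab2*Δ and 7.50 and 6.36 FPKM in *clr4-1*, 17.99-fold above WT in *pab2*Δ. These 2 were the only ones with a row among 7 symbols looked for in their list. From the core environmental stress response, as known from *S. pombe*, only a list of 11 genes was read, of which 9 had a row. This list was chosen with earlier results of these data known, so the share called in it is a description only. All 9 were called higher in *pab2*Δ (53.8% of all genes), with a median log2 fold change of 1.06 against 0.19 for all genes. After TMM scaling 7 were higher (32.8% of all genes), *gpd1* was lower at −0.07 and *pyp2* was not called. Other genes of that response were not looked at as a list. The polyubiquitin gene *ubi4* went from 61.8 and 61.1 FPKM to 280.3 and 275 FPKM (2.16, adjusted p = 3.17e-07 from limma). *ntp1*, encoding neutral trehalase, was higher by 1.59, *cta3*, encoding a cation pump, by 1.56, *gpx1*, encoding glutathione peroxidase, by 1.35 and *ctt1*, encoding catalase, by 1.06. Of these, *cta3* was low, at 0.995 and 0.870 FPKM in WT and 4.97 and 4.44 FPKM in *pab2*Δ. Its log2 fold change in *pab2*Δ lay between 0.71 and 2.22 under the alternative settings.

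In *clr4-1*, the same 9 core stress genes split into 4 higher, 3 lower and 2 not called, or 5 higher and 2 lower after TMM scaling, with a median of 0.13. The shares of all genes were 15.1% higher and 27.5% lower, or 21% and 17.7% after TMM scaling. *ubi4* was at 67.0 and 67.5 FPKM there (0.13, a call lost without WT replicate 1, WT replicate 2 or *clr4-1* replicate 2, with adjusted p between 0.0505 and 0.0677 from limma), *gpx1* was higher by 0.24 and *ntp1* lower by 0.32, and none of the 9 changed by 1 on the log2 scale. *hsp3105* was 1.56-fold higher in *clr4-1* (adjusted p = 0.00467 from limma). The −0.15 of *hsp9* in *clr4-1* (adjusted p = 0.038) was no longer called after TMM scaling (adjusted p = 0.164).

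The 7 genes for regulators of the stress response had log2 fold changes between −0.45 and 0.77 in *pab2*Δ. Of these, 3 were higher and 1 lower under both scalings, against 53.8% and 19.9% of all genes as deposited and 32.8% and 34.5% after TMM scaling. In *clr4-1* none of the 7 was called higher and 4 were lower, against 15.1% and 27.5% of all genes. After TMM scaling 3 were lower there and again none higher, against 17.7% lower and 21% higher. *pap1*, the bZIP factor of the oxidative stress response, was at 45.2 and 44.4 FPKM in WT, 77.9 and 76.2 FPKM in *pab2*Δ and 39.4 and 38.4 FPKM in *clr4-1* (0.77 and −0.20). *sty1*, the stress kinase, was at 58.9 and 57.0 FPKM in WT and lower in both mutants, at 43.4 and 41.1 FPKM in *pab2*Δ (−0.45, adjusted p = 1.87e-04 from limma) and 35.2 and 35.4 FPKM in *clr4-1* (−0.70, adjusted p = 1.65e-04). *hsf1*, encoding heat shock factor and named after its values were seen, was at 23.1 and 22.9 FPKM in WT and 31.8 and 32.0 FPKM in *pab2*Δ (0.46, adjusted p = 5.99e-04 from limma), and did not pass in *clr4-1* (−0.08, adjusted p = 0.301). A predicted heat shock factor binding protein, SJAG_03527, was at 60.7 and 75.1 FPKM in WT and 47.0 and 44.8 FPKM in *pab2*Δ (−0.55, adjusted p = 0.006 from limma).

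**Figure D4:**
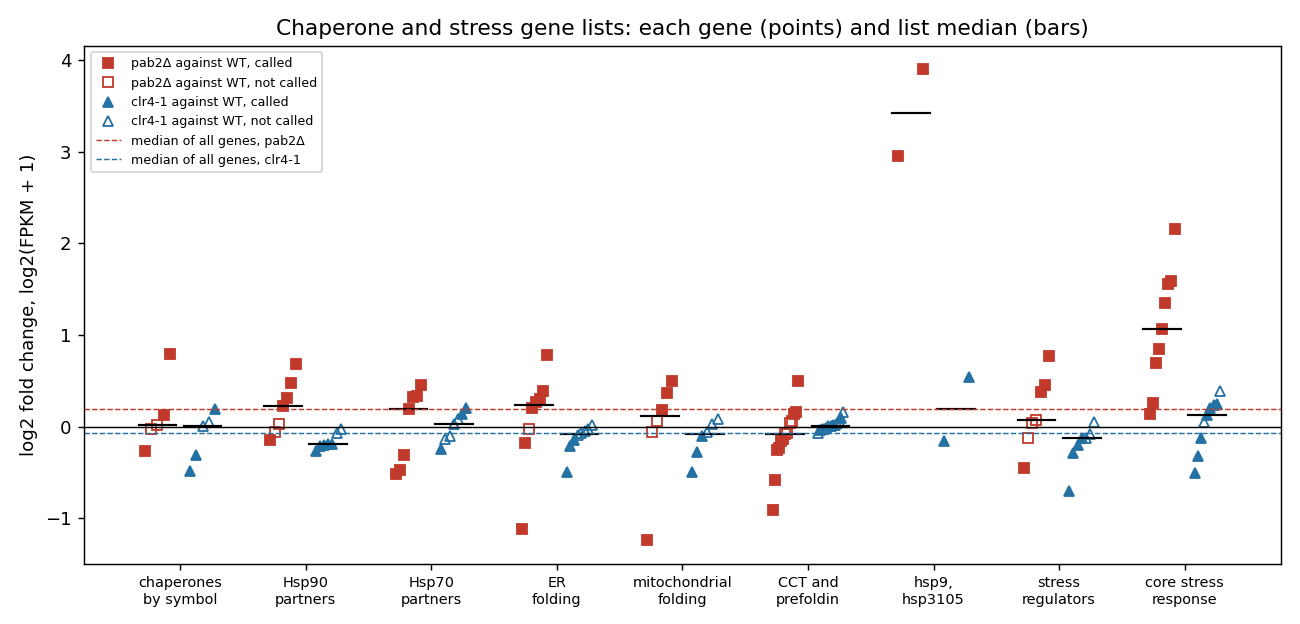
log2 fold change of each gene of the chaperone and stress gene lists in *pab2*Δ (squares) and *clr4-1* (triangles) against WT, filled where called by limma as deposited, with bars at the list medians and dashed lines at the medians of all genes tested. The core stress list and the pair *hsp9* and *hsp3105* stand highest in *pab2*Δ, with medians of 1.06 and 3.42, while the *clr4-1* medians lie between −0.19 and 0.19. The pair is all that had a row among 7 symbols looked for, and SJAG_02919 of the Hsp20 family, not called in *pab2*Δ, is not plotted. The lists were chosen with earlier results of these data known.

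Genes read as markers of meiotic or sporulating cells were also higher in *pab2*Δ. All 7 measured (*mei4*, *rec8*, *spo5*, *mde2*, *spn7*, *meu10* and *rem1*) were called higher than in WT, also after TMM scaling, against 53.8% and 32.8% of all genes, and none was listed at 0 in any library. Their summed FPKM was 17.9 and 18.8 in the WT libraries, 138 in each *pab2*Δ library and 23.6 and 23.9 in *clr4-1*. A few genes carried the sum. In WT *mde2* was highest at 10.1 and 12.1 FPKM, while *rem1*, *rec8*, *meu10* and *spn7* were at 1.25 FPKM or less. In *pab2*Δ *spn7* at 47.2 and 46.7 FPKM and *meu10* at 39.0 and 38.2 FPKM were highest. In *clr4-1* 2 of the 7 were called higher, *spn7* and *meu10*, against 15.1% of all genes. The call of *meu10* in *clr4-1* was lost when either WT or either *pab2*Δ library was left out (adjusted p between 0.0616 and 0.0964 from limma). The paper reports by RT-qPCR that *mei4*, *rec8* and *spo5* mRNA rose in *pab2*Δ. It also reports that Pab2 preferentially bound putative meiotic mRNAs, with *mei4* and *rec8* the ones measured among these 7. Fewer asci were reported from homothallic *pab2*Δ cells under nitrogen depletion, whereas the cells sequenced here were vegetative and in rich medium. Whether these 7 genes mark cell kind in this strain was not tested, so they are not read as independent markers of it. Like the other lists, these 7 were chosen with earlier results of these data known. The part of these 7 genes in the changes of the chaperone and stress genes was not tested. In RNA from whole cultures more cells of a kind and more RNA per cell cannot be told apart.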

How the data were processed

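The authors deposited 1 table of FPKM values for 5272 genes in 6 libraries. Its unit, which the table does not name, was read from the values and column names. The submitters' processing notes name FastQC 0.11.6, STAR 2.5.3a and StringTie 1.3.1c, and the genome build is not given in the sources used here. The deposited columns of mutant to WT ratios were not used. The *pab2*Δ columns carry no replicate number and are called first and second in listed order. Whole reads could not be recovered from FPKM, which leaves the depth unknown and counting error out of the text.

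Genes averaging 1 FPKM or more were tested with limma 3.58.1 in R 4.3.3 (trend in the prior variance, 1 coefficient per strain) on log2(FPKM + 1), which understates changes of genes with low values. Folds in the text are ratios of mean FPKM without a pseudocount. P-values rest on the spread between the 2 libraries of a strain. For each gene this spread was pooled over the 3 strains and shrunk towards the trend of all genes. Alternatives were pseudocounts of 0.1 and 5, minimums of none and 5 FPKM, TMM scaling, no trend, only the 2 strains compared, a replicate block, each library left out, and fold thresholds of 1.5 and 3. The fit was tested on simulated data.

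Named genes were all chaperones, rows described as heat shock proteins without a symbol, and in each other list the genes called with a log2 change of at least 1, then the largest until 2 were named. *lsh1* was added by its description after its values were seen. Members and lists were chosen with earlier results of these data known.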

Additional observations from a re-analysis of the deposited data

How the results depend on the processing

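Over the 9 chaperone genes and 3 comparisons, 345 of 360 values under an alternative stayed on their side of the threshold without reversing a call, 9 lost the call, 2 gained it and 4 changed sign with a call on at least 1 side. These 4 came with TMM scaling, which lowers *pab2*Δ relative to the other strains: *hsp90* to −0.083 against WT and −0.16 against *clr4-1*, *mas5* to −0.197 against WT and *bip1* to −0.237 against *clr4-1*. The uncalled 0.02 of *mas5* in *pab2*Δ was −0.0021 without WT replicate 2. *sty1* also reversed with TMM scaling, to −0.020 against *clr4-1*. With TMM scaling, 5 instead of 3 of the 5 genes found by symbol were called in *pab2*Δ.

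Of all genes, 2085 were called in *clr4-1*, and between 1284 and 1874 when 1 library was left out, where a strain with a lone library is assumed to vary like the others. The lowest counts were without WT replicate 2 (1284) and replicate 1 (1316). Genes past 2-fold numbered 471 in *pab2*Δ and 97 in *clr4-1*, with 1031 and 229 at 1.5-fold and 262 and 49 at 3-fold.

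The replicate block, possible only for WT and *clr4-1*, called 1577 genes, and SJAG_03815 (Hsp16), *fes1*, *hsp9*, *ubi4* and *meu10* lost their calls (adjusted p = 0.0862, 0.0598, 0.119, 0.0596 and 0.129 from limma), while SJAG_03527 gained one (0.035). Same-numbered libraries of WT and *clr4-1* did not deviate together (r = −0.094 across 4899 genes). The paper describes 2 rounds of RNA sequencing, and this correlation cannot show whether same-numbered libraries shared a round. Depth is unknown, so the precision rests on 2 libraries per strain.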
